A study of Mus musculus with 11 samples.

Results

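H3K4me3, the trimethylated form of lysine 4 on histone H3, was profiled by chromatin immunoprecipitation and sequencing (ChIP-seq) in 8946 cells, a mouse T-lymphoblastic leukaemia line. All 26767 segments of that library were taken, out of 158769 segments and peaks in the 9 region lists of the series. They are described over the 21779 nuclear protein-coding genes that RefSeq places on the assembled chromosomes of GRCm38.p6, the build also called mm10. The series asks how Zmiz1, a PIAS-like coactivator, works with Notch1 on chromatin, and holds 11 samples: 9 precipitations and 2 inputs. The cells of the H3K4me3 library carried 2 retroviral constructs, an epitope-tagged Zmiz1 with an NGFR reporter and an activated Notch1 with a GFP reporter, and had been sorted as GFP+/NGFR+. The labels call this derivative Flag-Zmiz1/L1601PDP. The same derivative gave the H3K4me1 library, the libraries labelled H3K27me3 and H3K27ac, those of Rbpj, Flag-Zmiz1 and ICN1 (the cleaved, active form of Notch1), and the input, so every value below comes from cells with forced Zmiz1 and Notch1. A second derivative, HA-Zmiz1/DEGFDLNRDP, gave the lists of HA-Zmiz1 and ICN1 used for comparison, with an input of its own. Histone samples were fixed with formaldehyde alone and the antibody to H3K4me3 was Millipore 07-473, per the labels. All samples come from derivatives of 1 line and each target has 1 sample per derivative, so no value has a replicate and no difference was tested. The file names of the HA lists speak of pooled replicates, and their number is not given in the sources used here. Intervals are exact 95% intervals (Clopper-Pearson for shares, Poisson for counts). They cover counting error only, and reads without molecular identifiers are not independent molecules.

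Nucleosomes that flank the start of an active gene carry H3K4me3. In mammals it is laid down by SET1 and MLL family methyltransferases, which are drawn partly through the CXXC protein Cfp1 (Cxxc1) to unmethylated CpG islands, and it is removed by KDM5 demethylases. Enhancers carry mostly the monomethylated form, H3K4me1. Genes that define a cell's identity are known to carry unusually wide H3K4me3 domains, and in T cells those include the genes of the T-cell receptor and of the factors that set up the lineage.

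The sequences that frame the results are the 250 bases just before the outermost listed start of 6 genes, read 5′ to 3′ in the direction of transcription, with each CpG in capitals. They come from the RefSeq table of GRCm38.p6. Cd8a (chr6:71373177-71373426, plus strand) and Lcp2 (chr11:34046678-34046927, plus strand) are T-cell genes that carried H3K4me3 with no CpG in this stretch. Lck (chr4:129573642-129573891, minus strand) is a T-cell gene with 1 CpG. Ppia (chr11:6415617-6415866, plus strand), a housekeeping gene, has 38. Alb (chr5:90460620-90460869, plus strand), the liver albumin gene with 2, and Sox2 (chr3:34649745-34649994, plus strand), a stem-cell and neural factor with 27, both lacked the mark.
Cd8a: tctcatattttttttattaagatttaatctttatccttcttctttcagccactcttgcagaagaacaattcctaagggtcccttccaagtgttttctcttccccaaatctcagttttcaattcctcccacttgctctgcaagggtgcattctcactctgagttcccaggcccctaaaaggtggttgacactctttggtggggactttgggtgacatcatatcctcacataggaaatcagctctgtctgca
Lcp2: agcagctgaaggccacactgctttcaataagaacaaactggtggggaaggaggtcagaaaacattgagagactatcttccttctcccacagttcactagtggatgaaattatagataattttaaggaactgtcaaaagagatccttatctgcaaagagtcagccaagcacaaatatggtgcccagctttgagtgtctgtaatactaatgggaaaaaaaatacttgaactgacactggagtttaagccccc
Lck: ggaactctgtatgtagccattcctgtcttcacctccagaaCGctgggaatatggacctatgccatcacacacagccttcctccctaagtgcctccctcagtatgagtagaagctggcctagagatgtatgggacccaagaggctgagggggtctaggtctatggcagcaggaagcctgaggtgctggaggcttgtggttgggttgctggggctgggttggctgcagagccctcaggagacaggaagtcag
Ppia: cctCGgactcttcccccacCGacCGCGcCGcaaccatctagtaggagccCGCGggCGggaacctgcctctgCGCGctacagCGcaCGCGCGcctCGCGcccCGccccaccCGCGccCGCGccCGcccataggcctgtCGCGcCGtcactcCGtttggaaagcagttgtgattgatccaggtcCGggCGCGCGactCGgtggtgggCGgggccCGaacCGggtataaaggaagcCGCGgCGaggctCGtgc
Alb: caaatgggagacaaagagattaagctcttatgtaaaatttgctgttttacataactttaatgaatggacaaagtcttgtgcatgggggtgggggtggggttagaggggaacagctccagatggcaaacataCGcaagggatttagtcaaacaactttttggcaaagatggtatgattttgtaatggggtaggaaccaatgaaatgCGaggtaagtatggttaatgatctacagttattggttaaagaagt
Sox2: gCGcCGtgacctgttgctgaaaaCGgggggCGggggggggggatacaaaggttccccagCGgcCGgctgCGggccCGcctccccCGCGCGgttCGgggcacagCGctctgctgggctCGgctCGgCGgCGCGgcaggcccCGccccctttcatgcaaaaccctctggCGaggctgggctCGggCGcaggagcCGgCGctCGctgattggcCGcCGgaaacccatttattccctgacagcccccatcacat

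The starts of Cd8a, Lcp2, Lck and Ppia lay in segments with 318, 367, 124 and 341 H3K4me3 reads per kb, and those of Alb and Sox2 lay in none. CpG content thus differed as much among the 4 marked promoters as between the marked Ppia and the unmarked Alb. The same comparison over all listed starts is given further below.

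The library was deep and its reads were concentrated. From the deposited counts and folds it held 23730620 reads, against 36404168 in the input. Segments covered 66.3 Mb and took 47.9% of the H3K4me3 reads and 5.09% of the input reads, a pooled fold of 9.41. That fold was 2.77 for H3K4me1, 3.87 for the library labelled H3K27me3 and 2.62 for the library labelled H3K27ac. Before any use of those last libraries, their labels were set against genes active in every cell. The library labelled H3K27me3, a mark of Polycomb silencing, had segments over an end of 19 of 20 housekeeping genes, against 43.4% of all genes. The library labelled H3K27ac, a mark of active elements, had them over 0 of the 20, against 19% of all genes. The names of the deposited files give these 2 marks the other way round from the labels. Both are therefore named as "the library labelled" throughout.

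Segment width had a median of 2000 bp and ran from 200 to 36400 bp. The H3K4me3 read density had a median of 75.6 reads per kb, with quartiles of 45.7 and 221, while the input density in the same segments had a median of 26.8. The density distribution had 2 maxima, at 38.1 to 45.3 and at 256 to 304 reads per kb, with fewest segments per bin between them from 128 to 152. Segments of 128 or more reads per kb are called dense here and the others sparse. That limit comes from these data themselves, and 2188 segments lie within a factor of 1.25 of it. The 10054 dense segments held 83.5% of the reads in segments and had a median width of 3200 bp. The 16713 sparse ones had a median width of 1400 bp.

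**Figure D1:**
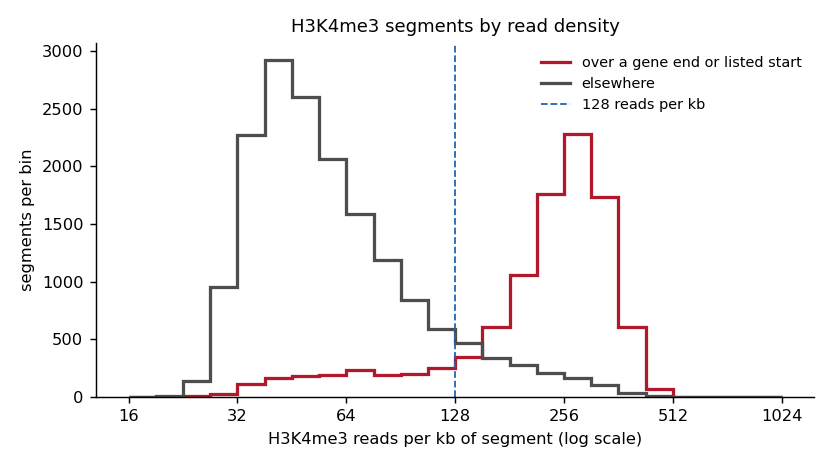
Number of H3K4me3 segments (y axis) by reads per kb of segment (x axis, log scale), for segments over a gene end or listed start (red) and for the rest (grey), with a dashed line at 128 reads per kb. Segments over gene ends or starts form the maximum at 256 to 304 reads per kb, and the others the maximum at 38.1 to 45.3.

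Most dense segments lay at gene ends or starts. An end of a protein-coding gene, or a start inside its span from the RefSeq promoter table, lay in 10015 segments (37.4%), which took 76.8% of the reads in segments. Their median was 249 reads per kb and 3000 bp, and 84.5% of them were dense. Of the others, 8688 lay inside a gene and 8064 between genes, with medians of 50.7 and 53.3 reads per kb. The share over a gene end or start rose with each step of density. It was 4.27% of segments below 40 reads per kb, 33.2% from 100 to 150, 67.9% from 150 to 200, and 94.3% (95% interval 93.4 to 95.1) from 300 upward.

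Counted by gene, 10192 of 21779 protein-coding genes had an end in a segment, 46.8% of all, and 9026 had one in a dense segment (41.4%). These shares are the background for every gene list below. Another 2060 genes held a segment inside their span but at neither end, and 9527 touched none. With the start of transcription in place of the ends, 8669 of 17492 genes with a listed start had 1 or more in a segment (49.6%). The far end of the gene, where transcription stops, lay in a segment for 916 of the same genes (5.24%). It was covered without the start in 224, and in 94 of those the segment also held the listed start of another gene. Of 2761 genes with more than 1 listed start, 1158 had every start covered, 646 some and 957 none. A gene with a segment inside its span alone often had such a start: 746 of the 1625 with a listed start.

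Segments reached further into the gene than in front of it. Among 4143 genes over 10 kb long with 1 listed start and a segment that held no other gene's start, the median reach was 1002 bp upstream (quartiles 707 and 1423) and 1912 bp downstream (quartiles 1343 and 2687). The downstream side was the longer in 84.8% of them (95% interval 83.6 to 85.9). In the 8800 genes over 10 kb with 1 listed start, the share in an H3K4me3 segment was highest at the start itself, 57.2%. H3K4me1 dipped to 14.2% there, between 39.0% at 1200 bp upstream and a maximum of 48.1% at 1400 bp downstream. The library labelled H3K27me3 followed H3K4me3, with 51.7% at the start, while the library labelled H3K27ac stayed between 8% and 18% over the whole window, with 16.4% at the start. These 4 libraries share 1 input.

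**Figure D2:**
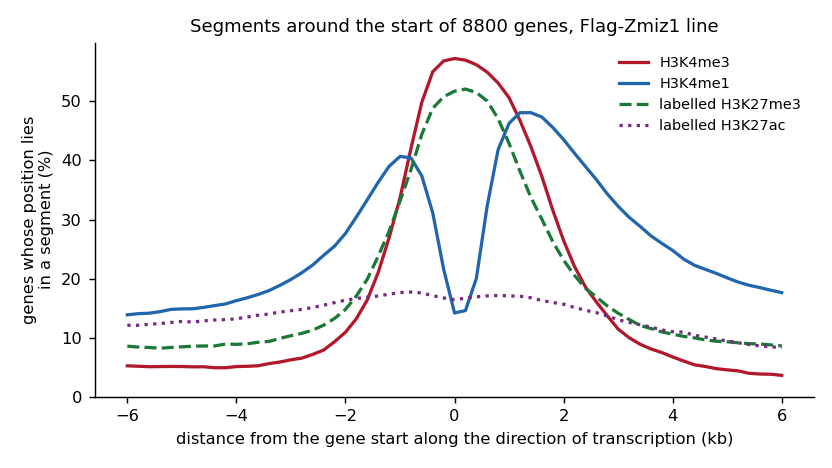
Share of 8800 genes (y axis, %) whose position at each distance from the start (x axis, kb, negative is upstream) lay in a segment of H3K4me3 (red), H3K4me1 (blue), the library labelled H3K27me3 (green, dashed) or the library labelled H3K27ac (purple, dotted). H3K4me3 is highest at the start, 57.2%, where H3K4me1 dips to 14.2% between a maximum on each side.

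Segments that held the starts of several genes were wider and denser, though a wider segment has more room for further starts. The 7072 segments with the listed start of 1 gene had medians of 3000 bp and 247 reads per kb. The 860 with the starts of 2 genes had 3800 bp and 301 reads per kb, and in 818 of these the genes lay on opposite strands. Whether they ran away from each other, as at a bidirectional promoter, was not checked. Coverage also went with gene length: 11.7% of genes under 2 kb had an end in a segment, 45.2% from 2 to 10 kb, 56.0% from 10 to 50 kb, 54.5% from 50 to 200 kb and 32.1% above that. Both ends were covered in 818 genes (3.76%), and in 342 of them by the same segment. The latter had a median length of 1.805 kb, shorter than many segments.

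The 3 marker genes, set beforehand for this library, were the T-cell genes Cd3e and Lck and the housekeeping gene Actb. Cd3e, a signalling chain of the T-cell receptor complex (chromosome 9, 44998735 to 45009663, minus strand), had a segment over each end. The one over its start ran from 45005800 to 45012199, 6.4 kb, with 1438 H3K4me3 reads (95% interval 1365 to 1514), 225 per kb against 26.7 in the input, a fold of 12.9. Lck, the kinase that starts receptor signalling (chromosome 4, 129548344 to 129573641, minus strand), had its outer start in a segment from 129571800 to 129577799, 6.0 kb, with 742 reads (690 to 797). That is 124 per kb against 26.2 in the input, a fold of 7.25, just under the limit for a dense segment, and an end of the neighbouring Fam167b lay in it too. The inner start of Lck, which is known to have a distal and a proximal promoter, lay in a denser segment of 6.2 kb with 1804 reads and 291 per kb. Actb, the cytoskeletal beta-actin (chromosome 5, 142903115 to 142907976), had an end in a segment from 142904600 to 142910399, 5.8 kb, with 1686 reads (1606 to 1768), 291 per kb against 29.5 in the input, a fold of 15.1. All 3 marker genes thus had an end in a segment, as did 46.8% of all protein-coding genes, so they alone do not show the identity of the line.

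Of the 27 listed genes of the T-cell receptor, its co-receptors and its signalling and recombination machinery, 26 had an end in a segment (96.3%, 95% interval 81.0 to 99.9), against 46.8% of all genes. The exception, Trat1, an adaptor of the receptor complex, had its listed start in a segment inside its span, 4.4 kb wide with 215 reads per kb. The widest belonged to Dntt, the polymerase that adds bases to receptor gene joints, with 19.6 kb and 225 reads per kb. Cd8b1, a co-receptor chain, followed with 17.2 kb and 340 reads per kb, and Rag2, a subunit of the recombinase, with 15.6 kb and 155 reads per kb in a segment shared with Iftap. Its partner Rag1 had 14.2 kb and 248. Cd4 and Cd8a each had 10.8 kb, with 269 and 318 reads per kb, so the genes of both co-receptors carried the mark in this line. Cd3d and Cd3g, receptor chains that are neighbours, shared 1 segment of 11.6 kb and 309 reads per kb.

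The same list held the range of density. Lcp2, an adaptor of receptor signalling, was highest at 367 reads per kb, and its promoter is the one printed above with no CpG. At the low end stood 5 sparse genes. Ptcra, the pre-receptor alpha chain, had 46.3 reads per kb (fold 4.66), Cd5 58.1 (fold 2.80), Cd6 65.5 (fold 3.92), Cd2 86.4 (fold 4.11) and Lck 124 at the outer start. A dense segment lay near one of them all the same: 6.26 kb from the nearer end of the Cd2 span, a segment of 8.6 kb had 352 reads per kb and held an end of the non-coding gene Gm32803.

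T-lineage transcription factors were covered in 19 of 20 cases (95%, 95% interval 75.1 to 99.9) against the same 46.8%, and 18 of the 20 lay in dense segments. Tcf7, the TCF1 gene through which Notch starts the T-cell programme, had 22.0 kb, 395 reads per kb and 8697 reads (95% interval 8515 to 8882), the highest read count of any segment. Ikzf1, the Ikaros gene, had 15.2 kb and 333 reads per kb. Runx3, a factor of cytotoxic T cells, was the exception, with no listed start covered and only a sparse segment inside its span of 2.2 kb and 50.5 reads per kb. Ets1 was covered at an end by 1.0 kb with 72.0 reads per kb, while the widest of all 26767 segments lay inside its span (chromosome 9, 32692600 to 32728999), 36.4 kb with 7160 reads and 197 per kb.

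The T-cell lists had wider segments than the median covered gene, at densities near its own, as a description of 1 library. Over all 10192 covered genes the segment at the end had medians of 3200 bp and 261 reads per kb, and for 225 of them (2.21%) it was 10 kb or wider. For the receptor list the medians were 9300 bp and 228 reads per kb, and 12 of 26 covered genes had 10 kb or more. For the factor list they were 8200 bp and 290, with 8 of 19. Housekeeping genes had 4200 bp and 302 reads per kb, with 0 of 19. Cytosolic ribosomal protein genes, a family described below, had 4200 bp and 314 reads per kb, with 5 of 79. The limit of 10 kb was chosen after seeing the data.

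**Figure D3:**
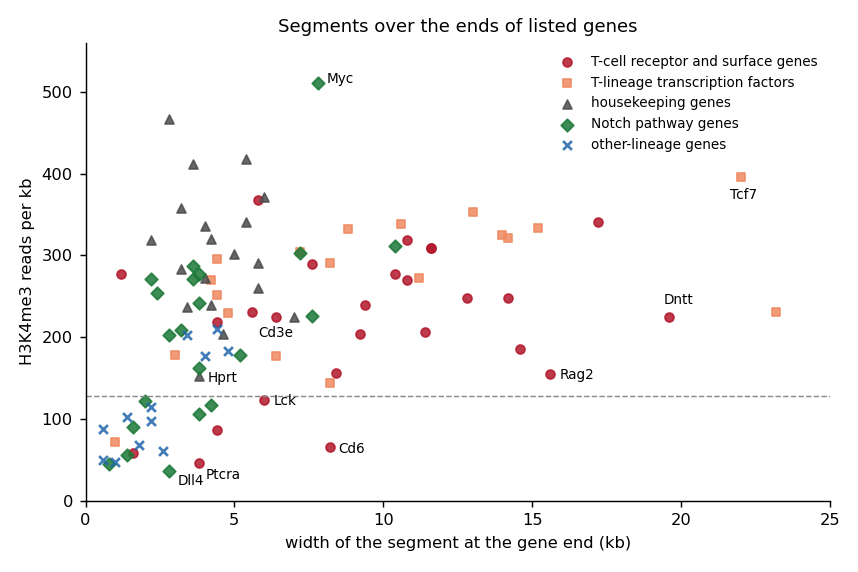
Width in kb (x axis) and H3K4me3 reads per kb (y axis) of the segment over an end of each covered gene, for T-cell receptor and surface genes (red circles), T-lineage factors (orange squares), housekeeping genes (grey triangles), Notch pathway genes (green diamonds) and other-lineage genes (blue crosses), with a dashed line at 128 reads per kb. Only T-cell and Notch pathway genes among those drawn lie above 10 kb, such as Tcf7 at 22.0 kb, while housekeeping genes lie at 152 reads per kb or more and at 7.0 kb or less.

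Of 12 genes of effector T cells, 4 had an end in a segment (33.3%, 95% interval 9.92 to 65.1), a share whose interval holds the 46.8% of all genes. Within 5 kb of a segment there were 7, or 58.3% against 56.7% of all genes. Ctla4, an inhibitory receptor, had 11 kb and 206 reads per kb over both ends, and Tbx21, the T-bet gene of type 1 helper cells, 2.8 kb and 140. Prf1, the perforin gene, had 1.0 kb and 67.0 reads per kb, and Il2ra, the IL-2 receptor alpha chain, 1.6 kb and 51.2 at a fold of 2.00. The cytokine genes Il2, Il4, Il17a and Ifng, with Gzmb, Pdcd1 and Foxp3, touched no segment. Cd40lg held a sparse one inside its span.

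Over the 9 lists of other lineages, 12 of 101 genes had an end in a segment (11.9%, 95% interval 6.29 to 19.8), against 46.8% of all genes, and 4 of the 12 were dense. Within 1 kb of a segment there were 23 (22.8%, against 50.6% of all genes), and within 5 kb 40 (39.6%, against 56.7%). Inside the span but at neither end, 13 of the 101 held a segment, against 9.46% of all genes. No gene of the erythroid and megakaryocyte list (0 of 12, which allows up to 26.5%) or of the germ-cell list (0 of 10, up to 30.8%) was covered. Within 5 kb of a segment, however, there were 7 of the 12 erythroid genes, against 56.7% of all genes, and 3 within 1 kb. The B-lineage list had 3 of 15. Btk, a kinase of the B-cell receptor, had 3.4 kb and 202 reads per kb, but its listed start was not covered and the segment at its far end also held an end of Timm8a1. Ebf1, a factor that commits cells to the B lineage, had 1.8 kb and 68.3, and Cr2 0.6 kb and 50 at a fold of 2.19. Cd79a, Cd79b and Ms4a1, which define B cells, touched no segment, and Pax5 and Spib each held a sparse one inside.

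The myeloid list had 1 of 15, Itgam, the CD11b gene, with 2.6 kb and 61.2 reads per kb. In that list 12 genes touched no segment, among them Lyz2, Mpo, Elane and Csf1r. Spi1 and Cd14 held segments inside their spans and none at the ends, with 69.0 and 51.7 reads per kb. Eomes, a T-box factor that killer T cells also use, was the only covered one of 6 natural killer genes, with 2.2 kb and 115. In the erythroid list, Klf1 and Epor, a factor and the receptor for erythropoietin, held dense segments inside their spans, with 172 and 176 reads per kb. Neither segment held the listed start, but that of Klf1 took 2800 bp of a span of 3310 bp and so came close to it. The neural list had Map2, a microtubule-associated protein, with 4.4 kb and 210 reads per kb, the neuronal tubulin Tubb3 with 4.0 kb and 177, and the synaptic vesicle protein Syp with 0.6 kb and 88.3. The muscle creatine kinase Ckm (102 reads per kb, at its far end) was the 1 covered muscle gene of 10. Liver genes had 2 of 11, the aminotransferase Tat with 97.7 and the apolipoprotein Apoa1 with 48.0. Neither had its listed start covered, and Apoa1 was covered at its far end alone. The tight-junction gene Cldn4 (183, both ends) was the 1 covered epithelial gene of 10.

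Some promoters of developmental factors lacked the mark although they are rich in CpG. Sox2 and Olig2 had 27 and 25 CpG in the 300 bases around the start, Neurod1 26 and Cebpa 29. An end of each of these 4 genes lay in a segment of the library labelled H3K27ac and none in a segment of the library labelled H3K27me3. Over all protein-coding genes these shares were 19% and 43.4%. In the germ-cell list, 0 of 10 genes had an end in either library. Among them Ddx4, Dazl and Mael were also rich in CpG, with 38, 28 and 24, and lacked H3K4me3 at their ends. Hox cluster genes, developmental factors of body position, were covered in 3 of 39 cases: Hoxb4 with 223 reads per kb, Hoxa13 with 67.2 and Hoxb5 with 32.9 at a fold of 1.68.

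Housekeeping genes were covered in 19 of 20 cases (95%, 95% interval 75.1 to 99.9), all 19 in dense segments. Hprt, on the X chromosome, had the lowest density with 152 reads per kb. The widest were over Polr2a, the large subunit of RNA polymerase II, with 7.0 kb and 224 reads per kb, Tbp, the TATA-binding protein, with 6.0 kb and 372, and Tfrc and Actb with 5.8 kb each. Ywhaz, a 14-3-3 protein, was the exception, with both ends bare and a segment of 5.4 kb and 468 reads per kb inside its span. It has no listed start, so whether that segment holds its start is not known here. Families of the basic cell machinery had similar shares, all of them against 46.8%: 79 of 87 cytosolic ribosomal protein genes (90.8%), 73 of 78 mitochondrial ones (93.6%), 37 of 39 proteasome subunits (94.9%) and 36 of 39 subunits of NADH dehydrogenase (92.3%). In these 4 families 224 of the 225 covered genes were dense.

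The exceptions in those families were of a few kinds. Mrpl4, Mrpl22, Mrpl24, Mrps2 and Mrps23 each held a segment inside the span and none at the ends. With listed starts counted beside the ends, however, 77 of the 78 mitochondrial ribosomal protein genes were covered. Psmb11, the subunit of the thymus epithelial proteasome, and Psma8, the subunit of the testis proteasome, touched no segment, and nor did Ndufb4b and Ndufb4c. Of the cytosolic ribosomal protein genes, 82 of 87 had an end or a listed start covered. Rpl22, Rpl38 and Rps27l held a segment inside, and Rpl10l, Rpl32l, Rpl37rt, Rpl39l and Rps27rt touched none. The latter are near-copies of other ribosomal genes, and how uniquely reads map to them was not tested. Receptors and structural proteins of other tissues were nearly bare: 5 of 1105 olfactory receptor genes (0.452%), 2 of 350 vomeronasal receptor genes, 0 of 56 keratin-associated protein genes and 1 of 42 beta-defensin genes. All of those covered were sparse but Vmn1r4 with 307 reads per kb. The olfactory ones were Olfr9, Olfr314, Olfr371, Olfr1507 and Olfr1509 at 40 to 64.5. Vmn2r1 had 39.0 and Defb40 48.0. Many members of these families are near-copies of each other. Families with mixed use fell between, with 244 of 397 Zfp zinc-finger genes (61.5%) and 21 of 94 Kcn potassium channel genes (22.3%).

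**Figure D4:**
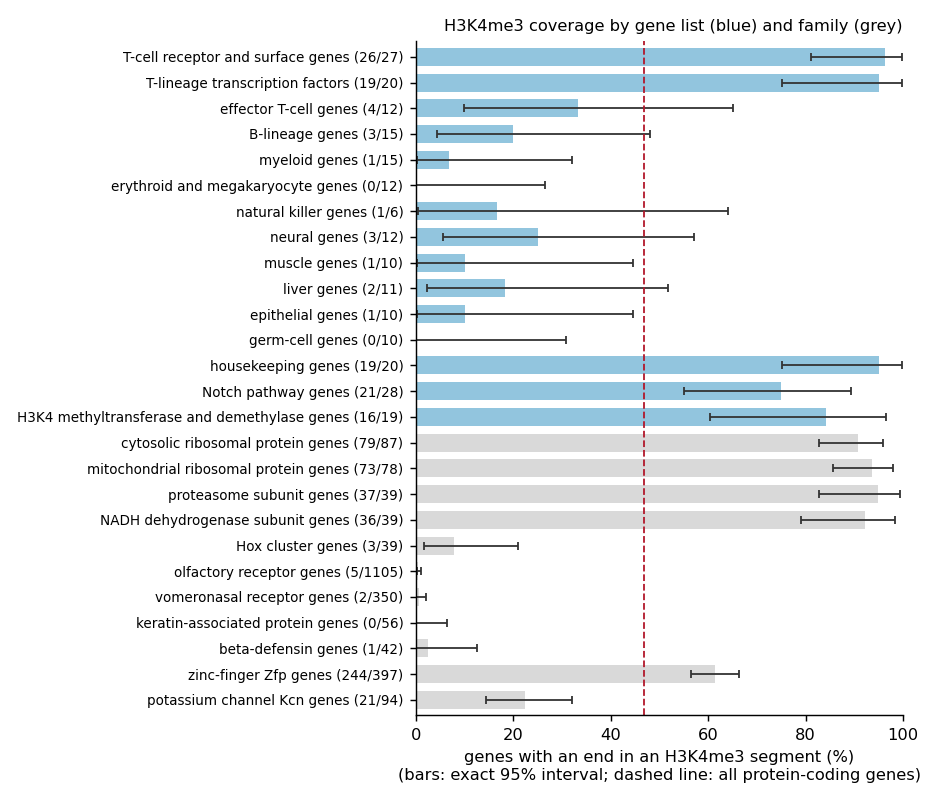
Share of genes with an end in an H3K4me3 segment (x axis, %) for each gene list (blue) and gene family (grey), with exact 95% intervals and a dashed line at the 46.8% of all protein-coding genes. Both T-cell lists, the housekeeping list and the 4 families of basic machinery lie above 90%, and the other-lineage lists at 25% or below.

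Genes of the Notch pathway, which the series is about, were covered in 21 of 28 cases (75%, 95% interval 55.1 to 89.3). The share over all genes was 46.8%. An end lay in a dense segment in 14 of the 28, against 41.4% of all genes. The covered genes had a median of 209 reads per kb. Among the receptors, Notch1 had 2.8 kb and 203 reads per kb over its start (chromosome 2, 26501800 to 26504599), Notch2 2.4 kb and 254, and Notch3 3.8 kb and 162. Notch4, mainly an endothelial receptor, had 7.2 kb and 303 reads per kb at its far end and none at its listed start, and the segment also held an end of Gpsm3 and Pbx2. Ligand genes were sparse or bare: Dll1 had 122, Jag2 55.7 and Dll4 36.4 reads per kb, and Jag1 touched no segment. In the transcription complex, Rbpj, the DNA-binding subunit, had its 2 listed starts in a segment of 5.6 kb and 280 reads per kb inside its span. Of the Mastermind coactivators, Maml1 had 287 and Maml3 106 reads per kb. Maml2 had 1 of its 2 listed starts in a sparse segment with 60 reads per kb.

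The targets of the pathway differed widely. Myc, the growth regulator, had both ends in 1 segment (chromosome 15, 61983000 to 61990799) of 7.8 kb, with 3980 reads (95% interval 3857 to 4106) and 510 reads per kb, the highest density of any gene of the 15 lists. Ccnd3, cyclin D3, had 10.6 kb and 216 over its outer start, and 10.4 kb and 312 over its far end and inner start in a segment that also held an end of Bysl. Il7r, the IL-7 receptor, had 7.6 kb and 226, and Igf1r, a growth factor receptor, 5.2 kb and 178. The feedback regulators Nrarp and Dtx1, by contrast, lay in sparse segments of 1.6 kb and 0.8 kb with 90.0 and 45.0 reads per kb, and the repressor genes Hes1, Hes5, Hey1 and Hey2 touched no segment. Dtx1, Nrarp, Hes1, Hes5 and Hey1 each had an end in a segment of the library labelled H3K27ac, and Hey2 did not. None of the 6 had one in a segment of the library labelled H3K27me3. In that list 15 of 28 genes had an end in the library labelled H3K27ac, against 19% of all genes, and 13 in the library labelled H3K27me3, against 43.4%. The Zmiz1 gene itself had 4.2 kb and 118 reads per kb over its start. Reads of the retroviral Zmiz1 and Notch1 cannot be told apart from those of the genes where the sequence is shared. Its relatives Zmiz2 and Pias1 to Pias4 were all dense, with 209 to 278 reads per kb.

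The enzyme list held 19 genes of H3K4 methyltransferases, H3K4 demethylases and their cofactors. Of these, 16 had an end in a segment (84.2%, 95% interval 60.4 to 96.6), against 46.8% of all genes. In 15 that segment was dense, against 41.4%. Setd1b, a SET1 methyltransferase, had the widest segment with 10.4 kb and 406 reads per kb, shared with Rhof. The SET1 and MLL cofactor Hcfc1 had 6.2 kb and 246, Kmt2a, the MLL1 gene, 5.4 kb and 369, and Kmt2c and Setd1a 4.8 kb each with 346 and 280. Kmt2d had 7.0 kb and 427 reads per kb over its listed start, and at its far end 4.8 kb and 239 in a segment that also held an end of Prkag1. The 1 sparse gene was the demethylase Kdm5b with 93.1 reads per kb. Dpy30 and Ash2l, core subunits of these complexes, were bare at their ends but held dense segments inside, with 303 and 409 reads per kb. That of Dpy30 held 3 of its 4 listed starts, and Ash2l has no listed start. The Y-linked demethylase Kdm5d touched no segment, while its X-linked counterpart Kdm5c had 3.4 kb and 214.

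Promoter sequence was compared in the 300-base windows of RefSeq, 250 before to 50 after each of 21263 listed starts. The 10291 starts in a segment had a median of 22 CpG (quartiles 15 and 30) and 62.0% G and C. The 10972 others had 4 (quartiles 2 and 10) and 50.3%. The share of starts in a segment was 1.42% with no CpG, 12.4% with 3 to 5, 30.2% with 6 to 10, 62.4% with 11 to 15 and 82.2% (95% interval 80.8 to 83.6) with 31 or more. The median read density of covered starts ran from 171 reads per kb with 1 to 2 CpG to 271 with 21 to 30, and was 213 in the 14 covered starts with no CpG.

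**Figure D5:**
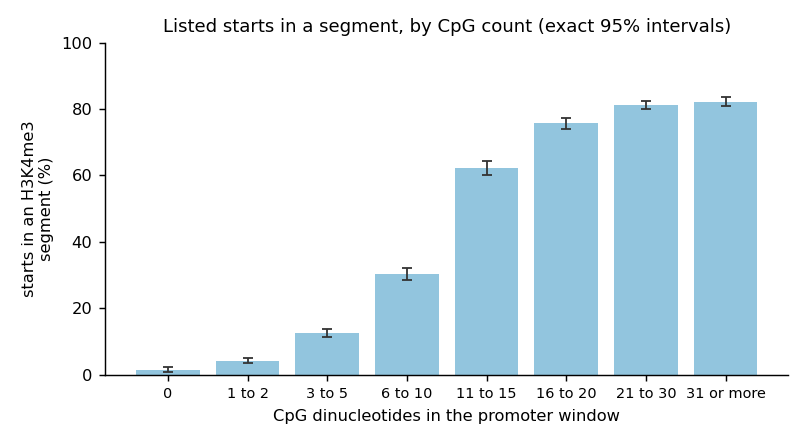
Share of listed starts in an H3K4me3 segment (y axis, %) by the number of CpG in the 300-base promoter window (x axis), with exact 95% intervals. The share climbs from 1.42% with no CpG to 82.2% with 31 or more, most steeply from 6 to 15.

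T-cell receptor genes carried the mark on promoters of the kind that mostly lacked it. With 5 or fewer CpG in the outermost window, 443 of 5715 genes had a listed start covered (7.75%). In the receptor list all 12 such genes did: Lcp2 with 0 CpG, Cd3d, Ptcra and Trat1 with 1, Dntt with 2, Cd247, Cd5, Cd8a, Rag1 and Rag2 with 3, and Cd3g and Ptprc with 4. That list was chosen with results of these data known. The list's median was 3 CpG, against 22 for the housekeeping list and 19 for the T-lineage factors. Of the low-CpG genes of the effector list 2 of 6 were covered, and in the B-lineage, myeloid, erythroid, natural killer and liver lists 0 of 6, 0 of 6, 0 of 5, 0 of 4 and 0 of 8. The receptor list was not alone above 7.75%: the Notch pathway list had 2 of 3, proteasome genes 2 of 3 and Zfp genes 13 of 46. Olfactory receptor genes had 2 of 921 and vomeronasal ones 0 of 319.

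Short motifs were searched in the same windows on both strands. The GC box GGGCGG was in 68.3% of windows whose start was in a segment, 25.5% of the others and 46.2% of all. The Ets core CGGAAG was in 35.3%, 7.88% and 21.1%. Both contain a CpG, and the part of CpG count in these differences was not tested. The TATA box TATAAA ran the other way, with 5.82%, 19.0% and 12.6%. The core of the Rbpj site, TGGGAA, was in 22.1%, 26.7% and 24.5%, and CCAAT in 38.5%, 37.9% and 38.2%, so the last differed little. A match is a run of letters and not a bound site.

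The widest segments lay in part over known T-cell genes and in part elsewhere. After Ets1 came a segment of 35.0 kb over an inner start of Spata13 (chromosome 14, 160 reads per kb), 30.4 kb over Mideas and Gm31513 (chromosome 12, 147), 29.8 kb over Lrig1 (chromosome 6, 226) and 29.8 kb over a histone gene cluster (chromosome 13, 192). The last held an end of 9 genes for histones H1, H2A, H2B, H3 and H4. Then came 27.4 kb inside Znrf1, sparse at 71.3 reads per kb, 27.2 kb over Xrcc6 and Desi1, 25.6 kb over Nck2, and 24.2 kb over Il17rb and Chdh. All 9 of these segments overlapped segments of H3K4me1 and of the library labelled H3K27me3, and none overlapped the library labelled H3K27ac.

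Of the 10 densest segments of 2 kb or more, 6 lay on chromosome 15. Troap led with 675 reads per kb over 2.2 kb, then a segment between genes on chromosome 15 with 520, Nup133 (chromosome 8) with 511, Myc with 510 and the tubulin gene Tuba1b with 500. The 5 after them had 486 to 500 reads per kb: 1 over 1110038F14Rik and 1 between genes, both on chromosome 15, 1 over Lpar6, 1 over Nme6, and a segment on chromosome 14 with 655 input reads per kb. At the last the fold was 1.17, so its density is that of the input. It is 1 of 7 segments with at least 10 times the median input density. Their H3K4me3 densities of 244 to 783 reads per kb came with folds of 1.17 to 1.48. They lay between genes, and leaving them out changed the number of covered genes by 0.

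Chromosome 15 and the X stood apart in the input as well. In dense segments over gene ends or starts, the median input density of the other 18 autosomes was 26.7 to 28.6 reads per kb and that of H3K4me3 260 to 272.5. On chromosome 15 these were 39.0 and 310, and on the X 14.3 and 193. The median fold ran the other way, 12.3 on chromosome 15 and 20.3 on the X, against 14.4 to 15.6 elsewhere. Reads per kb are therefore high on chromosome 15, where Myc, Il7r and Ywhaz lie, and low on the X, where Hprt lies, and the part of DNA copy number in either was not tested. By fold, Hprt (19.7) stood above Myc (18.6) and Actb (15.1). The X had 28.5% of its genes covered, and the Y 3 of 256.

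Dense segments off all listed ends and starts numbered 1595, and 410 of them (25.7%) held an end of a RefSeq gene that is not protein-coding, in 307 cases a long non-coding RNA (lncRNA). Over all 12639 lncRNA genes, 2156 (17.1%) had an end in a segment, against 46.8% of protein-coding ones. Among the 10 such segments with most reads, one spanned the constant region of the T-cell receptor beta locus, with an end of Trbc2 and several joining segments (chromosome 6, 41543400 to 41561399, 18.0 kb, 229 reads per kb). Another covered an end of Malat1, an abundant nuclear RNA (11 kb, 367), and another a stretch with tRNA genes on chromosome 13 (10.4 kb, 361).

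For the other libraries an overlap of 1 bp or more was counted and is given as a share of each list. H3K4me1 segments overlapped 92.6% of H3K4me3 segments, and 54.2% of the H3K4me1 list was so overlapped. By combination, 21167 segments (79.1%) overlapped H3K4me1 and the library labelled H3K27me3 and not the one labelled H3K27ac. The library labelled H3K27me3 overlapped 84.7% (58.2% of its own list) and the one labelled H3K27ac 10.8% (10.4% of its own). Rbpj, the DNA-binding partner of Notch1, had a peak in 79.6% of dense and 29.0% of sparse H3K4me3 segments, and 87.3% of its 20993 peaks lay in one. HA-Zmiz1, from the other derivative, did not follow density in this way, with peaks in 14.5% of dense and 14.7% of sparse segments. Its share was highest, 26.8%, in segments of 80 to 100 reads per kb and 4.46% below 40. Of the 4984 HA-Zmiz1 peaks 93.2% lay in an H3K4me3 segment, and of the 414 ICN1 peaks of that derivative 89.1%. In the Flag derivative 52 of 82 ICN1 peaks and 54 of 581 Flag-Zmiz1 peaks did. They lay in only 33 and 38 H3K4me3 segments. The 7 segments with high input density, at folds of 1.17 to 1.48, each overlapped peaks of both of these lists. The part of the input in these counts was not tested. Wide segments have more room for a peak, the lists of a derivative share an input, and peaks of the HA derivative are set here on chromatin of the Flag derivative.

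At covered genes, the T-cell receptor list stood high for HA-Zmiz1 by count: 19 of 26 covered genes had a peak in the segment at their end, against 12.7% of all covered genes, and 9 of 19 for T-lineage factors, 4 of 19 for housekeeping genes and 2 of 21 for Notch pathway genes. Rbpj had a peak at 24 of 26, 18 of 19, 17 of 19 and 16 of 21 in the same order, against 77.6%. ICN1 of the HA derivative had one at 3 of 26 (Cd3e, Cd8a and Dntt), 1 of 19 (Gfi1), 0 of 19 and 1 of 21 (Notch3), against 1.15%. Cd3d and Cd3g share 1 segment and are both counted. An H3K4me1 segment overlapped 25 of 26, 19 of 19, 19 of 19 and 17 of 21 of these genes' segments, against 92.1%, and one of the library labelled H3K27me3 26 of 26, 19 of 19, 19 of 19 and 14 of 21, against 90.7%. The segments of the receptor list are the widest of these groups, as given above, and the part of width in these counts was not tested.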

How the data were processed

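Chromatin of 1 cell line was sequenced after 9 precipitations of 8 targets, with 2 inputs. The submitters' processing notes name SICER 1.1 and MACS2 2.0.10, the aligner Bowtie 0.12.7, HOMER 4.2, FastQC 0.10.0 and mm10, without their order. Each SICER table holds, as the authors deposited it, read counts of the ChIP and the control per segment, in steps of 200 bp. The same deposited tables give a fold, the ChIP to control ratio scaled to the library totals, and a p-value with a false discovery rate of 0.000991 at most for H3K4me3. The peak lists of the transcription factors were called with a p-value limit of 1e-05, per the file headers. Their deposited columns of pileup signal and fold enrichment were not used, only the positions. Whether duplicate reads were removed before segments were called is not given in the sources used here.

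The total of the H3K4me3 library was recovered as the deposited ratio times the 36404168 filtered input tags of the file headers, which gave a whole number within 3.16e-06 reads. Genes came from the RefSeq table of GRCm38.p6, without 108 genes listed below 3 Mb on an autosome or the X, where H3K4me3 has 1 segment, on chromosome 9, with high input. A gene was covered where an end of its span lay in a segment. Where the ends lay in different segments the one with more reads was used. The strand and starts came from the RefSeq promoter table, which matched 17492 of 21779 genes and has none on chromosome 18. Reads per kb are counts divided by segment width, with no scaling. Python 3.11.15, pandas 2.3.3, numpy 2.4.6 and scipy 1.17.1 were used, and the assignment of genes was tested on simulated segments (591 of 591 genes recovered).

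The members and gene lists were chosen with earlier results of these data known. Genes were named by rule: the 3 markers, the uncovered genes and the 3 with the widest segment in the T-cell and housekeeping lists, the covered genes of the effector and other-lineage lists (up to 5 a list), the uncovered genes and the 5 with the widest segment in the Notch and enzyme lists, the genes under the 10 widest and 10 densest segments, and exceptions of families where 5 or fewer. Any other gene was named after its values were seen. A few genes that the rule names are not reported here. Alternatives were a window of 1 kb or 5 kb around a segment, the upper 50% of segments by fold, a false discovery rate of 1e-10, merging segments less than 1 kb apart, and leaving out segments with high input.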

Additional observations from a re-analysis of the deposited data

How the results depend on the processing

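No paired analysis was possible because each target has 1 sample per derivative and no group has a second. Of the values recomputed under the alternatives, 179 stayed within the set tolerance (1.5 times for a count) and 54 moved. The number of covered genes ran from 9752 to 12353, and was 9026 with dense segments only, which was added after seeing the data. With 128 replaced by 100 or 150 reads per kb, or by a fold of 7, there were 11333, 9301 or 10650 dense segments. A window of 1 kb around segments gave 6 B-lineage, 4 myeloid, 3 erythroid, 2 epithelial, 5 Hox, 11 olfactory and 2 beta-defensin genes. It gave 1635 genes with both ends covered, 51.1% with a covered start and 9.84% with a covered far end. For genes over 20 kb the last shares were 59.7% and 3.17%. A window of 5 kb gave 7 effector, 9 B-lineage, 7 myeloid, 7 erythroid, 2 natural killer, 5 neural, 4 liver, 3 epithelial, 2 germ-cell, 12 Hox, 22 olfactory, 2 beta-defensin and 36 Kcn genes.

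The upper 50% of segments by fold gave 2 effector, 1 B-lineage, 0 myeloid, 1 liver, 0 olfactory and 1 vomeronasal gene. Its median width was 2800 bp and its median density 220.3 reads per kb, with 2870 segments inside genes and 2163 between them. Its overlaps were 90.8% (H3K4me1), 88.5% (labelled H3K27me3), 14.3% (labelled H3K27ac), 68.8% (Rbpj) and 0.052% (ICN1, Flag derivative). Dense segments only gave 2 effector, 1 B-lineage, 0 myeloid, 0 natural killer, 0 muscle, 0 liver, 1 Hox, 0 olfactory, 1 vomeronasal and 0 beta-defensin genes. A false discovery rate of 1e-10 gave medians of 2400 bp and 125 reads per kb, and 3 olfactory genes. Merging gave 79.6 reads per kb. The cause of these shifts was not tested. An overlap of 200 bp was not run for the peak lists, where peaks can be narrower. The count in a segment limits the precision: Cr2 rests on 30 reads and Dtx1 on 36. With 1 library, the spread between cultures is unknown.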
